A study of Mus musculus with 30 samples.

Results

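The genes described here are 5 galectins and 1 galectin-binding glycoprotein in the mouse heart: Lgals1, Lgals3, Lgals4, Lgals8, Lgals9 and Lgals3bp. They were chosen by symbol, through the Ensembl IDs of each count table, with earlier results of these same libraries already known. All 6 were found among the 78258 genes of the postpartum study and among the 56691 genes of the diet study, and all 6 passed the filter on low counts in both (11945 and 10335 genes tested). Because of how they were chosen, their levels and fold changes in the postpartum study are given as a description with no p-value. A gene is said to be called where its adjusted p was below 0.05.

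Hearts of wild-type (WT) mice and of mice carrying S55L, a point mutation of the mitochondrial protein CHCHD10, were profiled by 3' mRNA sequencing, in which reads pile up at the ends of transcripts. Naive mice were kept to an age of 100 days, while postpartum (PP) mice entered breeding at 65 days and their hearts were collected at postpartum day 0. A separate diet study used S55L PP hearts alone, from mice given either control food or EH301, a supplement of nicotinamide riboside and pterostilbene, while breeding. The strain is not given in the labels. Distinct libraries numbered 5 for WT naive, 4 for WT PP, 5 for S55L naive, 4 for S55L PP and 4 for each diet, because some deposited columns were identical to one another.

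In the postpartum study WT libraries held 1418715 to 2949993 reads on genes and S55L libraries 2755500 to 5131316. Diet libraries held 466651 to 3048461. By the well codes, genotype and plate position nearly coincide, with S55L in columns 2 and 3 and WT in column 1, save for the single library WT PP 1 in column 2. A fit with the plate column as a term therefore estimates column 2 against column 1 from WT PP 1 alone. All genotype values with that term rest on this library. In postpartum hearts they rest on S55L PP 5 as well, the only S55L PP library in column 2. In the diet study the well codes put the control diet libraries used in columns 1 and 2 and the EH301 libraries used in column 3. Diet and plate column therefore cannot be told apart, and no plate term was fitted there. Levels are given in CPM, read counts scaled to library size by trimmed means, and the diet table was scaled apart from the postpartum table. Chchd10 counts cannot show a point mutation, so they check no genotype label. The log2 fold change of Chchd10 was 0.73 (SE 0.19, edgeR adjusted p = 0.00282) in S55L naive against WT naive and 0.29 (SE 0.21, adjusted p = 0.31) in S55L PP against WT PP.

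Galectins are small lectins that bind beta-galactoside sugars on glycoproteins. They are made without a signal peptide and act both outside the cell, where they cross-link surface receptors and matrix, and inside it, where some of them bind sugars exposed on broken lysosomes. Galectin-3, the product of Lgals3, is made in quantity by activated macrophages and is measured in blood as a marker of heart failure and cardiac fibrosis. Lgals3bp encodes a secreted, heavily glycosylated partner of galectin-3, and Lgals4 encodes a tandem-repeat galectin best known from the intestinal epithelium.

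The sequences upstream of the 3 genes with the largest differences between genotypes are shown because these genes moved in opposite directions. Each line holds the 250 bases before the annotated gene start from RefSeq, build GRCm38.p6, written 5' to 3' on the gene's own strand. They are chr14:47373610-47373859 on the plus strand for Lgals3, chr11:118401960-118402209 on the minus strand for Lgals3bp and chr7:28833544-28833793 on the plus strand for Lgals4. Capitals mark matches to 9 motifs searched on both strands.
Lgals3: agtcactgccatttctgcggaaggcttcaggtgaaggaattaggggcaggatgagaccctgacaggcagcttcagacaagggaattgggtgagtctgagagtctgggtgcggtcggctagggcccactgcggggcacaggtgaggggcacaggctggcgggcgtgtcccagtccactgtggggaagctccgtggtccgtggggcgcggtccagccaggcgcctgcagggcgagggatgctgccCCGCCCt
Lgals3bp: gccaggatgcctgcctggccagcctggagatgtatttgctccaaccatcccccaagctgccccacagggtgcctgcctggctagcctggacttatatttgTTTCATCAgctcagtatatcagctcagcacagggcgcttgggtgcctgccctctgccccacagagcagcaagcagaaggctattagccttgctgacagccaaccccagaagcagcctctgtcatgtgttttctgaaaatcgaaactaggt
Lgals4: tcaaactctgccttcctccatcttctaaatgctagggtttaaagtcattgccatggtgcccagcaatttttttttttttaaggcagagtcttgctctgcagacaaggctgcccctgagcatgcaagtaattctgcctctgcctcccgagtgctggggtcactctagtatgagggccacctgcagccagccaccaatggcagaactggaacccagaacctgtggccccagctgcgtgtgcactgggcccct
The capitals in Lgals3 match the GC box GGGCGG on the opposite strand, beginning 7 bases before the start, and 32.7% of the 32851 promoters in the same table held that motif. The capitals in Lgals3bp match TGATGNAA, the CARE motif of ATF4, on the opposite strand, beginning 150 bases before the start, and 3.45% of promoters held it. Lgals4 matched none of the 9 motifs. Beside the GC box and CARE these were the interferon-response element ISRE, the NF-kB motif and the STAT motif TTCNNNGAA, the AP-1 motif TGANTCA, which answers growth and stress signals, and the core-promoter motif TATAAA. The last of them were TGTGGT, the motif of the blood and bone factors RUNX, and the E-box that is bound by MYC and its relatives, CACGTG. The same search found an ISRE upstream of Lgals9, held by 2.98% of promoters, and a RUNX motif upstream of Lgals8, held by 14.05%. GC content of the windows was 66% for Lgals3, 55.6% for Lgals3bp and 53.6% for Lgals4, beside a median of 52.4% over all promoters. A match describes letters in a window and not a bound site.

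Lgals3 was at 5.12, 2.43, 8.72, 3.42 and 5.41 CPM in the 5 WT naive hearts and at 5.41, 10.5, 4.80 and 12.1 CPM in the 4 WT PP hearts. It was at 273, 318, 248, 116 and 195 CPM in the 5 S55L naive hearts and at 279.6, 394, 254 and 412 CPM in the 4 S55L PP hearts. Every S55L library lay above every WT library, and the lowest S55L value, in S55L naive 4, was still far above the highest WT value. Mean levels were 5.02 ± 2.40 (SD, n = 5) and 8.22 ± 3.66 (n = 4) CPM in WT naive and WT PP, and 230.2 ± 77.7 (n = 5) and 335 ± 79.7 (n = 4) CPM in S55L naive and S55L PP. The ratio of means was 45.9 between naive hearts and 40.7 between postpartum hearts. The WT values rest on few reads, 45 counts over the 5 WT naive libraries and 76 over the 4 WT PP libraries, against 5543 and 5045 in S55L.

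On the fitted scale the log2 fold change of Lgals3 was 5.47 (SE 0.33) in naive and 5.32 (SE 0.34) in postpartum hearts, the 30th and the 28th largest of 11945 genes. The difference between these estimates was -0.15 (SE 0.48). Within a genotype the PP and naive ranges overlapped: the log2 fold change of PP against naive was 0.69 (SE 0.43) in WT and 0.54 (SE 0.24) in S55L. The levels ran in the order WT naive, WT PP, S55L naive, S55L PP, and only the step from WT PP to S55L naive exceeded the spread between libraries. With the plate column as a term in the fit the genotype values were 6.28 and 6.24, and over the alternatives run they stayed between 5.33 and 6.28 in naive and between 5.14 and 6.24 in postpartum hearts.

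**Figure D1:**
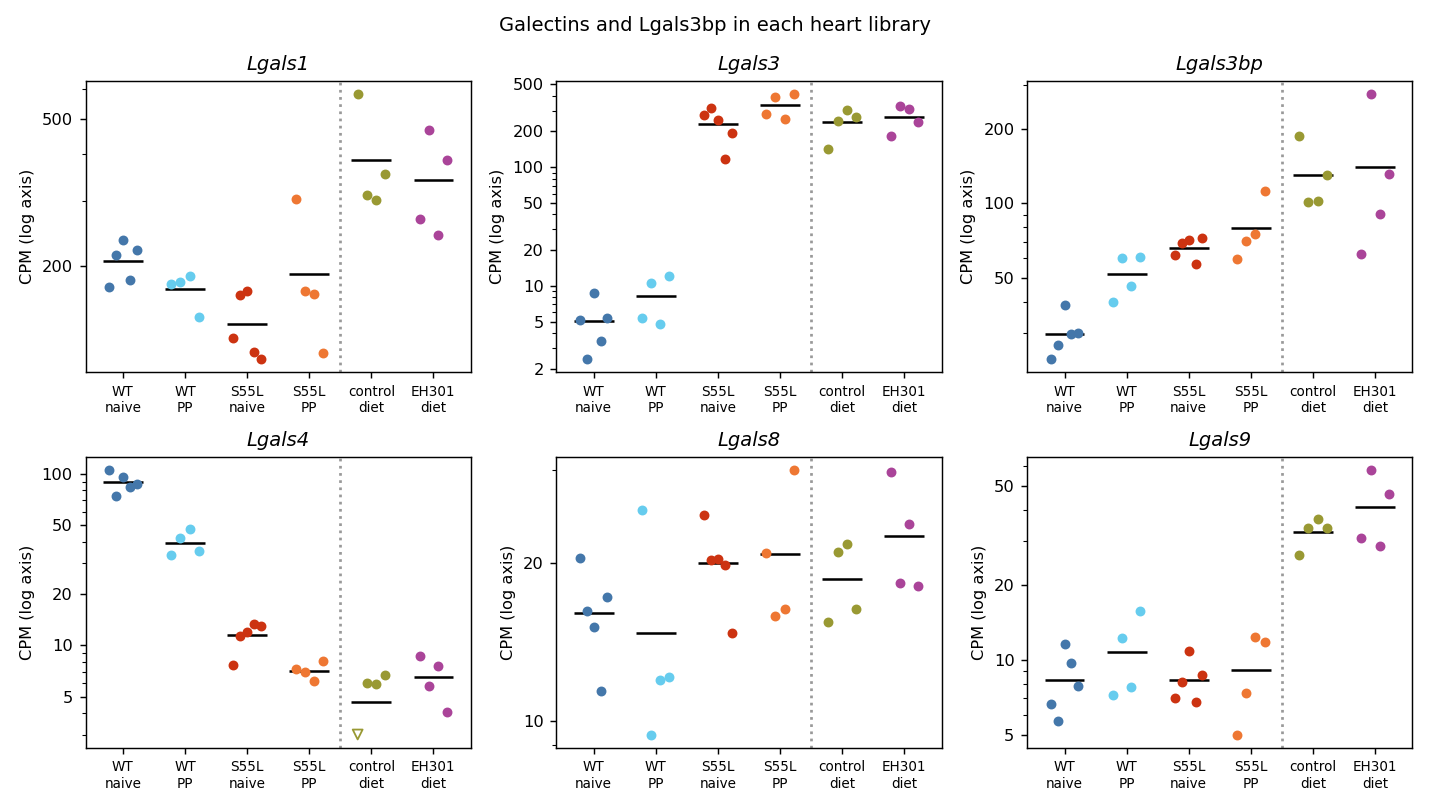
CPM of each gene (log axis) in every distinct library, with dots for libraries, black lines for group means and a dotted line between the separately scaled postpartum and diet tables; the open triangle marks Lgals4 in control diet 1, which had 0 counts and is drawn at the foot of the axis. Lgals3 lies between 2.43 and 12.1 CPM in WT and between 116 and 412 CPM in S55L of the postpartum study, and Lgals4 runs the other way.

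Lgals3bp was at 23.5, 26.8, 38.9, 29.6 and 29.98 CPM in WT naive hearts and at 40.01, 60.0, 46.2 and 60.9 CPM in WT PP hearts. It was at 61.7, 68.9, 70.9, 56.8 and 72.4 CPM in S55L naive hearts and at 59.3, 70.3, 75.4 and 112 CPM in S55L PP hearts. The WT naive hearts lay below all others, while WT PP, S55L naive and S55L PP each overlapped the next. Means were 29.8 ± 5.74 (SD, n = 5), 51.8 ± 10.3 (n = 4), 66.1 ± 6.62 (n = 5) and 79.4 ± 23.1 (n = 4) CPM in that order.

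Lgals3bp had a log2 fold change between genotypes of 1.15 (SE 0.18) in naive hearts and 0.61 (SE 0.19) in postpartum hearts, and their difference was -0.54 (SE 0.26). Against the naive state of the same genotype it was 0.80 (SE 0.19) in WT PP, without overlap of the groups (0.82 with no filter and 0.91 with the plate term, which changed its call), and 0.26 (SE 0.17) in S55L PP. The S55L PP against WT PP value rested in part on single libraries: it was 0.51 without WT PP 1 and 0.41 without S55L PP 5, and its call was lost with either omission and when fitting only the compared groups (0.61). With the plate term it was 1.49, and 1.63 in naive hearts.

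Lgals4 was lower in S55L and, within WT, lower in PP than in naive hearts. Its CPM were 105, 73.8, 95.9, 84.4 and 87.5 in WT naive hearts and 33.5, 42.2, 47.4 and 35.3 in WT PP hearts. In S55L they were 7.67, 11.4, 12.0, 13.3 and 13.0 in naive hearts and 7.24, 6.92, 6.15 and 8.05 in PP hearts. WT naive, WT PP and S55L hearts formed bands that did not overlap, and only S55L naive 1 fell inside the range of S55L PP. Means were 89.4 ± 11.9 (SD, n = 5), 39.6 ± 6.41 (n = 4), 11.5 ± 2.26 (n = 5) and 7.09 ± 0.787 (n = 4) CPM.

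The mean of Lgals4 was 7.81-fold lower in S55L naive than in WT naive and 5.58-fold lower in S55L PP than in WT PP. Its fitted log2 fold changes were -2.97 (SE 0.16) and -2.47 (SE 0.20), the 67th and 114th most negative of 11945 genes. WT PP hearts had 2.26-fold less than WT naive hearts, a log2 fold change of -1.19 (SE 0.16), and in S55L the value of PP against naive was -0.69 (SE 0.20). The difference between the PP effects of the genotypes was 0.50 (SE 0.26). Across the alternatives run, the values stayed between -3.03 and -2.67 in naive hearts, between -2.54 and -2.05 in postpartum hearts, and between -1.28 and -1.11 for WT PP against WT naive.

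Of 22 markers of intestinal and other simple epithelium, 18 had 0 counts in the 5 WT naive libraries, where Lgals4 was highest, among them Vil1 (villin), Cdh17 and Epcam. Their summed level was at most 1.74 CPM there. In WT PP 17 of them had 0 counts, and the sum was at most 1.43 CPM. In the S55L groups, where Lgals4 was lowest, the sum was higher, at 15.3 to 47.2 CPM in naive and 16.3 to 31.9 CPM in PP hearts, with 11 and 16 markers at 0. The keratin gene Krt18 was the single marker of the list that passed the filter. It had 0 counts in WT naive and 1 in WT PP, against 653 in S55L naive and 357 in S55L PP. Krt18 thus passed only through the S55L groups, which sets the direction of any call in advance. It was called higher in both comparisons, a call lost in naive hearts with the plate term, and nothing is read from it. Krt18 made up most of the sum in S55L, with means of 27.4 and 23.6 CPM in naive and PP hearts. The medians of the sum were 32.1 and 24.9 CPM there.

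Most cardiomyocyte markers moved with Lgals4 between genotypes, with 7 of 10 called lower in S55L in each comparison. The 1 called higher, Nppa, is part of the sum used here. In a bulk heart fewer cells of a type and less RNA per cell cannot be told apart. The summed level of 10 cardiomyocyte markers ranged from 66240 to 89759 CPM (WT naive), 67496 to 88007 (WT PP), 41413 to 58519 (S55L naive) and 36994 to 49856 (S55L PP), with no marker at 0. Per 100000 CPM of that sum, Lgals4 was 85.5 to 159 CPM (WT naive), 44.4 to 54.6 (WT PP), 18.5 to 27.0 (S55L naive) and 12.3 to 21.8 (S55L PP). On this scale too, WT naive and WT PP stood apart from each other and from both S55L groups, which overlapped.

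Ech1, a mitochondrial enzyme of fatty acid oxidation, is transcribed from the same strand and ends 1607 bases upstream of Lgals4 in GENCODE M21 (build GRCm38). It was deeply counted, with a mean of 3823 counts per WT naive library. The log2 fold change of Ech1, which fell in S55L, was -1.79 (SE 0.15, edgeR adjusted p = 2.74e-10) in naive and -1.60 (SE 0.17, adjusted p = 2.34e-08) in postpartum hearts, but its value in WT PP against WT naive was -0.19 (SE 0.15, adjusted p = 0.881). Lgals4 counts per 100 Ech1 counts were 3.13 to 4.84 (WT naive), 1.63 to 2.43 (WT PP), 1.23 to 2.18 (S55L naive) and 0.857 to 1.63 (S55L PP). WT naive therefore stayed above the other 3 groups, while WT PP and S55L naive overlapped once scaled to this neighbour. The part of reads from the neighbouring gene in the Lgals4 counts was not tested.

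**Figure D2:**
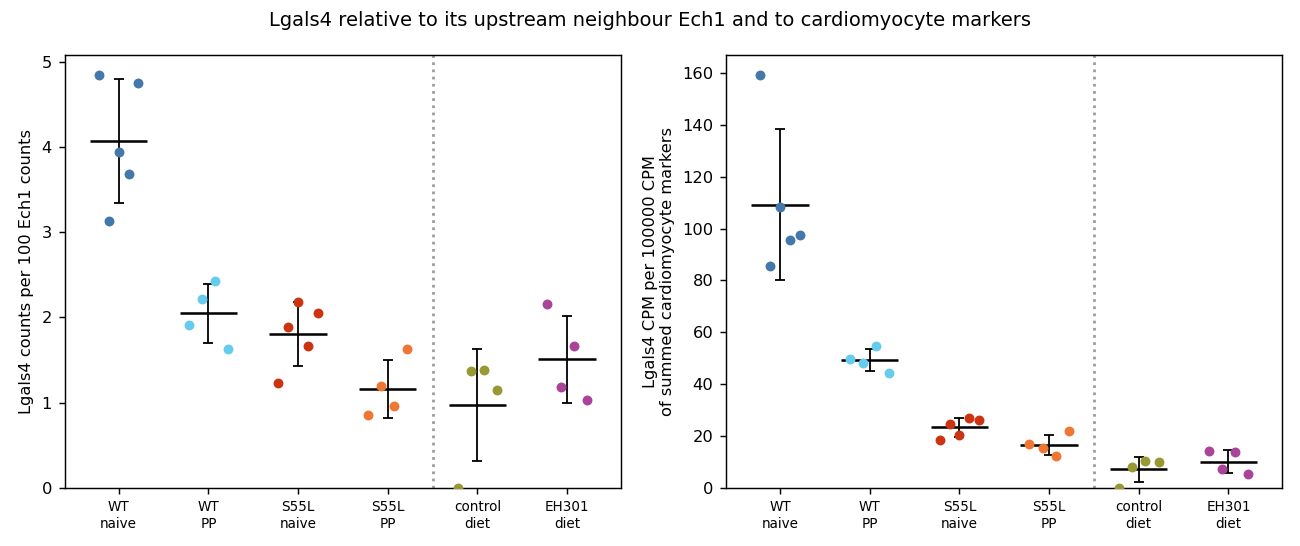
Lgals4 counts per 100 Ech1 counts (left) and Lgals4 CPM per 100000 CPM of 10 summed cardiomyocyte markers (right) in every distinct library; dots are libraries, black lines and bars are mean ± SD, and the dotted line parts the postpartum from the diet study. WT naive libraries lie at 3.13 to 4.84 on the left and 85.5 to 159 on the right, above all others on both scales.

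Lgals1 encodes galectin-1, a dimeric galectin of stromal and muscle cells. Its CPM were 175, 214, 235, 182 and 220.2 in WT naive, 179, 181, 188 and 145 in WT PP, 127, 167, 170.4, 117 and 112 in S55L naive, and 303, 171, 167 and 116 in S55L PP hearts. S55L naive hearts lay below all WT naive hearts, while S55L PP hearts spread widely, with S55L PP 1 above all other libraries and the range overlapping each other group. The log2 fold change between genotypes was -0.57 (SE 0.19) in naive and 0.13 (SE 0.21) in postpartum hearts, a difference of 0.70 (SE 0.28), and PP against naive was -0.25 (SE 0.20) in WT and 0.45 (SE 0.19) in S55L. The naive value was -0.31 with scaling to total counts and -0.63 with the plate term, and its call was lost under both. The postpartum genotype value was -0.63 with the plate term. GENCODE M21 lists the pseudogenes Lgals1-ps1 and Lgals1-ps2, with which Lgals1 could share reads, so its values are uncertain.

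Lgals8 encodes galectin-8, a tandem-repeat galectin that binds sugars on damaged vesicles and recruits the autophagy adaptor NDP52 in human cells. Its CPM ranged from 11.4 to 20.5 (median 16.2) in WT naive, 9.44 to 25.2 (median 12.1) in WT PP, 14.7 to 24.7 (median 20.2) in S55L naive and 15.9 to 30.1 (median 18.6) in S55L PP. All groups overlapped, and the log2 fold change between genotypes was 0.31 (SE 0.24) in naive and 0.45 (SE 0.26) in postpartum hearts. The postpartum value was 0.88 without WT PP 1, the library at 25.2 CPM, which changed its call. The naive value was -0.86 with the plate term, which takes column 2 against column 1 from WT PP 1 alone. Lgals8 overlaps Heatr1, a nucleolar ribosome-biogenesis gene on the opposite strand that rose by 0.93 (SE 0.24, edgeR adjusted p = 0.00266) and 1.04 (SE 0.26, adjusted p = 0.00308). The strand setting of the counting is not given in the sources used here, so Lgals8 values are uncertain.

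Lgals9 encodes galectin-9, an interferon-inducible tandem-repeat galectin of immune and endothelial cells. Its CPM ranged from 5.68 to 11.6 (median 7.86) in WT naive, 7.21 to 15.7 (median 10.01) in WT PP, 6.78 to 10.9 (median 8.17) in S55L naive and 5.01 to 12.3 (median 9.57) in S55L PP. All 4 groups overlapped. The log2 fold change between genotypes was -0.01 (SE 0.28) in naive and -0.26 (SE 0.29) in postpartum hearts, and PP against naive was 0.37 (SE 0.31) in WT and 0.12 (SE 0.27) in S55L. The naive value changed sign in 10 of 18 alternatives. The plate term gave 0.75 and 0.70 for the genotype values, of the opposite sign.

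Counted by the adjusted threshold, 2 of the 6 genes were called higher and 2 lower in S55L naive against WT naive, where 43.5% of all genes tested were called, and 2 higher and 1 lower in S55L PP against WT PP, where 31.6% were called. By direction, 21.9% were called higher and 21.6% lower in naive hearts, and 16.4% and 15.2% in postpartum hearts, and an unadjusted p below 0.05 was reached by 50.8% and 41.4%. The genes were chosen with these comparisons known, so nothing is read from these counts or from the calls lost or changed above. In WT PP against WT naive 0.0167% of genes were called, namely Lgals4 and the mitochondrial carrier gene Ucp3, both lower, and Ucp3 is named only because it made up the count. DESeq2 called 12 there, and 6.33% of genes had an unadjusted p below 0.05. In S55L PP against S55L naive edgeR called 0 of 11945 genes and DESeq2 18, with 6.27% at an unadjusted p below 0.05. The test of the difference between the genotypes' PP effects called 0 genes by edgeR and 1 by DESeq2, with 3.73% at an unadjusted p below 0.05, so none of the differences given above was called. Groups without overlap made up 32.2%, 25.4%, 1.88% and 2.24% of genes in the comparisons of naive genotypes, postpartum genotypes, WT states and S55L states.

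**Figure D3:**
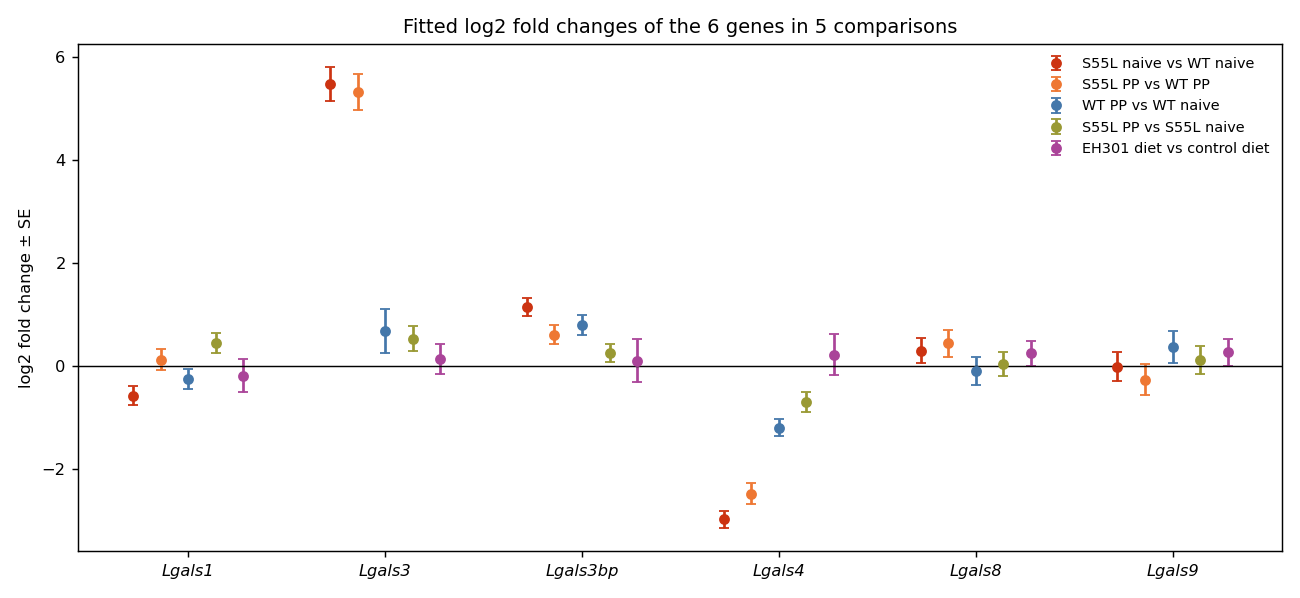
Fitted log2 fold change (vertical axis) with its standard error for each of the 6 genes in 5 comparisons. Lgals3 lies at 5.47 and 5.32 between genotypes, Lgals4 at -2.97 and -2.47, and the diet values of all 6 genes lie between -0.18 and 0.27.

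Most of the rest of the family was scarce in the heart. Lgalsl, a galectin-related gene without lectin activity, was the only one of 5 further family genes found in the table that passed the filter, at 14.1 ± 3.17 (SD, n = 5) CPM in WT naive and 10.6 ± 2.84 (n = 5) in S55L naive. Its log2 fold change was -0.42 (SE 0.22, adjusted p = 0.118) in naive and -0.13 (SE 0.23, adjusted p = 0.707) in postpartum hearts. Lgals2 had 2, 1, 3 and 1 counts in all libraries of WT naive, WT PP, S55L naive and S55L PP. Lgals7 had 0, 1, 3 and 0 counts, and Lgals12 and Grifin had 0 counts in all 4 groups. These fell below the filter and were not tested.

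Of 13 tested enzymes that build galectin ligands 3 rose and 1 fell in S55L naive against WT naive, and 3 rose and 0 fell in S55L PP against WT PP. Over all genes tested 21.9% and 16.4% were called higher in these comparisons, so the count is near that background. The median log2 fold changes were 0.29 and 0.18, beside -0.0038 and 1.47e-06 over all genes. Gcnt1, which builds the core-2 O-glycans that carry galectin ligands, rose on the log2 scale by 3.19 (SE 0.29, adjusted p = 2.02e-09) and 2.62 (SE 0.29, adjusted p = 7.72e-08). The N-glycan branching enzymes Mgat4b, at 0.85 (adjusted p = 5.58e-06) and 0.65 (adjusted p = 0.000778), and Mgat2, at 0.82 (adjusted p = 0.000994) and 0.55 (adjusted p = 0.0384), rose as well. The sialyltransferase gene St3gal4 fell in naive hearts, with a value of -1.13 (adjusted p = 0.0454), and was at -1.08 (adjusted p = 0.0884) in postpartum hearts. The St3gal4 call was lost with total counts, no filter, the replicate block or only the compared groups, and without any one of WT naive 1, 4 and 5 and S55L naive 1, 2, 3 and 5. Mgat5, which makes the branch that galectin-3 binds best, was at 0.23 (adjusted p = 0.234) and -0.01 (adjusted p = 0.972). Scaling to total counts instead called 8 and 5 of the 13 higher.

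Among 22 glycoproteins that galectins bind, 11 rose and 2 fell in naive hearts, and 10 rose and 3 fell in postpartum hearts, with medians of 0.65 and 0.61. Over all genes 21.9% and 16.4% were called higher and 21.6% and 15.2% lower. Slc3a2, which encodes CD98, a galectin-3 partner in macrophage activation, rose by 2.38 (SE 0.22, adjusted p = 2.93e-09) and 2.02 (SE 0.24, adjusted p = 3.2e-07). Trem2, a receptor of lipid-handling macrophages, rose by 3.31 (SE 0.40, adjusted p = 2.31e-07) and 2.60 (SE 0.37, adjusted p = 4.54e-06). Lamp1, a lysosomal membrane glycoprotein, rose by 1.10 (SE 0.16, adjusted p = 4.62e-06) and 0.94 (SE 0.18, adjusted p = 0.000226). The laminin gene Lama4 and the receptor gene Nrp1 were lower in both, and Thy1 in postpartum hearts. The 3 lower calls in postpartum hearts became 0 with total counts and 1 without any one of WT PP 4, S55L PP 4 and S55L PP 5.

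Of 19 tested adaptors and repair factors of the lysosomal damage response 8 rose and 2 fell in naive hearts and 7 rose and 2 fell in postpartum hearts, while 9 and 10 were not called, with medians of 0.26 and 0.40. The shares over all genes were 21.9% and 16.4% called higher and 21.6% and 15.2% lower. The autophagy receptor Sqstm1 (p62) rose by 2.72 (SE 0.17, adjusted p = 1.54e-12) and 2.82 (SE 0.19, adjusted p = 1.95e-11). Optn, a second such receptor, was at 0.98 and 0.74, and Chmp4b, of the membrane-repairing ESCRT-III complex, at 0.80 and 0.64, all called higher. With the plate term only 4 and 2 of the 19 were called higher, and with total counts 13 in postpartum hearts. The lower calls became 0 in both with the plate term, 0 and 1 with total counts, and 1 without any one of WT naive 3, WT naive 5 and S55L naive 1, 2 and 4 in naive hearts or without WT PP 5 in postpartum hearts. The postpartum count was 4 when fitting only the compared groups and 4 without any one of WT PP 4, S55L PP 3 and S55L PP 5.

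Of 25 tested lysosomal hydrolases and membrane proteins, 19 rose and 1 fell in each comparison, beside 21.9% and 16.4% of all genes called higher. Their medians were 0.97 and 0.98. The lower call in postpartum hearts was lost with total counts, no filter, the plate term or only the compared groups, and without any one of WT PP 1, WT PP 3 and S55L PP 3. Ctss, a cathepsin of antigen-presenting cells, rose by 2.81 (SE 0.17, adjusted p = 1.03e-12) and 2.28 (SE 0.18, adjusted p = 1.92e-10), and Ctsd rose by 1.53 (SE 0.14, adjusted p = 2.33e-09) and 1.58 (SE 0.16, adjusted p = 1.66e-08). Gpnmb, a glycoprotein of lysosome-rich macrophages, had 2 counts in all WT naive and 547 in all S55L naive libraries, a ratio of 103 with a 95% counting interval of 28.3 to 851. It had 4 counts in WT PP and 362 in S55L PP, a ratio of 54.5 (21.1 to 201). These intervals, exact and conditional on the counts, cover counting error only.

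Macrophage markers moved with Lgals3 and Lgals3bp between genotypes. Of 19 tested markers 18 rose in naive and 15 in postpartum hearts, none fell, and the medians were 2.30 and 1.84. Among all genes 21.9% and 16.4% were called higher. Lyz2 rose by 2.56 (SE 0.17, adjusted p = 6.9e-12) and 2.24 (SE 0.19, adjusted p = 8.47e-10), the complement gene C1qc by 2.30 and 1.80, and the growth factor receptor gene Csf1r by 2.40 and 1.84. The fold changes of the 19 ran from 0.26 to 3.19 in naive and 0.38 to 3.03 in postpartum hearts, and 0 of them exceeded that of Lgals3. In the list for lipid-associated and recruited macrophages, described below, 1 of 10 tested genes did exceed it in each comparison, at 6.45 and 5.63. The summed level of the 20 listed markers was 343 to 441 CPM (WT naive), 482 to 625.2 (WT PP), 1791 to 2156 (S55L naive) and 1620 to 2838 (S55L PP), with none at 0.

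Scaled to 100 CPM of that sum, Lgals3 was 0.551 to 2.01 CPM (WT naive), 0.899 to 2.005 (WT PP), 6.22 to 17.8 (S55L naive) and 12.2 to 21.6 (S55L PP). The S55L hearts thus remained above the WT hearts after scaling. Lgals3bp went the other way on that scale, at 6.07 to 8.98 CPM in WT naive and 8.31 to 10.1 in WT PP against 2.97 to 3.85 (S55L naive) and 3.62 to 3.96 (S55L PP). The cells that carried either transcript were not identified, and the part of macrophage number in the differences was not tested.

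**Figure D4:**
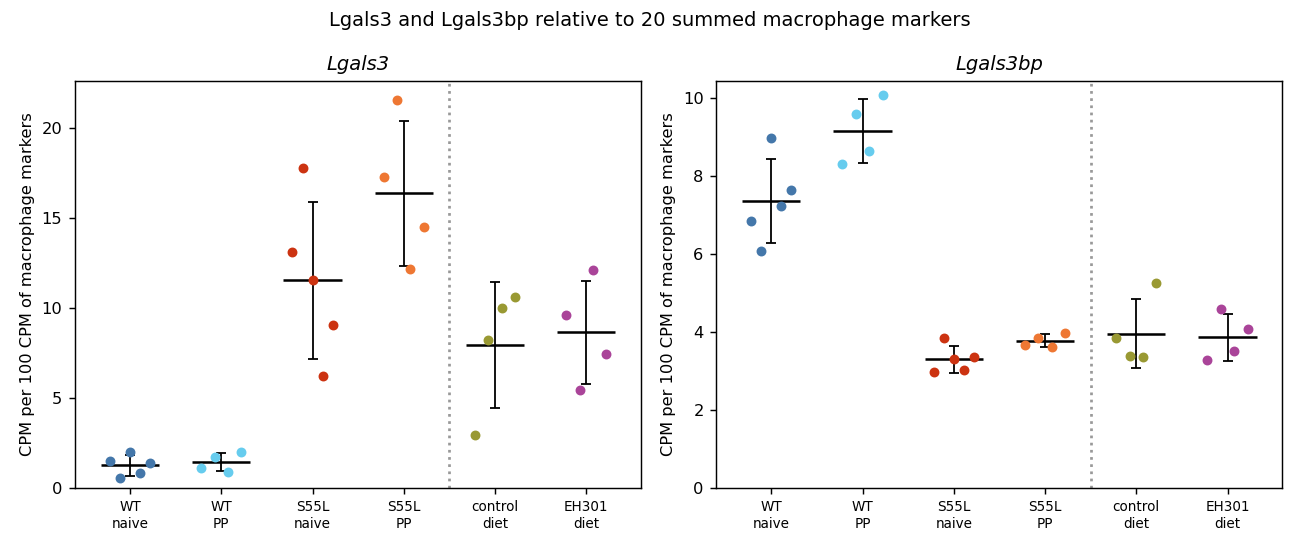
Lgals3 (left) and Lgals3bp (right) CPM per 100 CPM of 20 summed macrophage markers in every distinct library; dots are libraries, black lines and bars are mean ± SD, and the dotted line parts the postpartum from the diet study. Relative to these markers Lgals3 is higher in S55L (6.22 to 21.6) than in WT (0.551 to 2.01), and Lgals3bp is lower (2.97 to 3.96 against 6.07 to 10.1).

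The 10 tested genes of a list for lipid-associated and recruited macrophages split, with 7 called higher and 3 lower in naive and 5 higher and 2 lower in postpartum hearts. Of all genes 21.9% and 16.4% were called higher and 21.6% and 15.2% lower. The lower genes of the list included Lpl and Cd36, which cardiomyocytes also express for fatty acid uptake, while Trem2, Gpnmb and Ctsd were higher. In postpartum hearts 3 were called higher with the plate term and 1 lower with total counts. T and B lymphocyte markers could not be tested: 0 of 14 passed the filter, and their summed level was at most 5.98 CPM in any library of the postpartum study.

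Matrix genes also stood higher. Of 22 fibrosis and matrix genes linked to galectin-3 in the literature 19 rose and 0 fell in each comparison, with medians of 1.24 and 1.30. The shares called higher over all genes were 21.9% and 16.4%. Tgfb2, a profibrotic growth factor gene, rose by 2.45 (SE 0.29, adjusted p = 8.22e-07) and 3.10 (SE 0.31, adjusted p = 1.13e-07), the collagen gene Col8a1 by 2.33 (SE 0.25, adjusted p = 6.99e-08) and 2.35 (SE 0.25, adjusted p = 1.61e-07), and the elastin gene Eln by 2.59 and 2.61. With the plate term 12 and 9 of the 22 were called higher. Fibroblast markers were mixed: 7 rose and 2 fell of 14 in naive hearts and 7 rose and 1 fell in postpartum hearts, with the collagen genes Col1a1 (1.82 and 1.37), Col3a1 (1.46 and 1.29) and Col1a2 (1.20 and 1.26) among the higher ones. Endothelial markers gave 0 higher and 4 lower of 11 in naive hearts and 0 higher and 2 lower in postpartum hearts. Over all genes 21.6% and 15.2% were called lower. The lower counts of fibroblast markers, and of endothelial markers in postpartum hearts, are near or below those shares. The naive endothelial count was 2 with total counts and 1 with the plate term. The postpartum count was 1 with total counts or without S55L PP 5, 4 with every deposited column and 5 without S55L PP 4. The 2 lower fibroblast calls in naive hearts, Fap among them, became 0 with total counts, no filter, the plate term or without WT naive 3, and 1 without any one of WT naive 1, 4 and 5 and S55L naive 2, 3 and 4. The 1 in postpartum hearts became 0 with DESeq2 size factors, total counts, no filter or only the compared groups, and without any one of WT PP 1, 3 and 4 and S55L PP 3, 4 and 5. Per 100 CPM of the 14 summed fibroblast markers, Lgals1 was 6.44 to 10.3 CPM (WT naive), 6.15 to 7.32 (WT PP), 2.84 to 4.81 (S55L naive) and 3.17 to 6.81 (S55L PP), with S55L naive below both WT groups.

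Of 10 cardiomyocyte markers 1 rose and 7 fell in each comparison, with medians of -0.88 and -1.05. Over all genes tested 21.6% and 15.2% were called lower. The sarcomere genes Tnni3 (-1.65 and -1.74) and Myl3 (-1.79 and -1.73) fell, and Nppa, the natriuretic peptide gene of stressed heart muscle, rose (2.97 and 3.25), a call lost in postpartum hearts with the plate term. Of 9 smooth muscle and pericyte markers 1 rose and 7 fell in naive hearts and 1 rose and 4 fell in postpartum hearts. The naive count was 4 with total counts, with the plate term and without WT naive 4 or S55L naive 4, and the postpartum count 2 with total counts. The riser was the contractile gene Acta2 (3.45 and 2.47), and Vtn (-1.73 and -1.59) and Rgs5 (-0.87 in naive hearts) fell. Of 10 neutrophil and mast cell markers only Kit was tested, and it was not called, while 0 of 10 markers of uterus, placenta and mammary gland passed the filter.

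Lgals9 and Lgals3bp are known as interferon-stimulated genes. Of 16 other such genes tested 5 rose and 0 fell in naive and 3 rose and 0 fell in postpartum hearts, with medians of 0.34 and 0.21. Over all genes 21.9% and 16.4% were called higher, so the postpartum count is near that background. Ifi27l2a rose by 1.32 (SE 0.26, adjusted p = 0.000192) and 1.42 (SE 0.26, adjusted p = 0.000122), and Ifit3 by 1.53 (SE 0.34, adjusted p = 0.000901) and 0.98 (SE 0.33, adjusted p = 0.0272). Irf7, the transcription factor of the response, was at 1.22 (adjusted p = 0.00499) and 0.68 (adjusted p = 0.138). The naive count was 3 with the plate term and 3 without S55L naive 5. The postpartum count was 7 with total counts, and 1 without any one of WT PP 1, WT PP 4 and S55L PP 4 or when fitting only the compared groups. Per 100 CPM of the 22 summed interferon-stimulated genes, Lgals3bp was 14.9 to 23.4 CPM (WT naive), 21.6 to 35.3 (WT PP), 30.7 to 34.7 (S55L naive) and 28.5 to 37.0 (S55L PP), with the S55L groups overlapping WT PP. None of the genes of these lists was called in WT PP against WT naive, in S55L PP against S55L naive, in the difference of the PP effects or between diets.

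**Figure D5:**
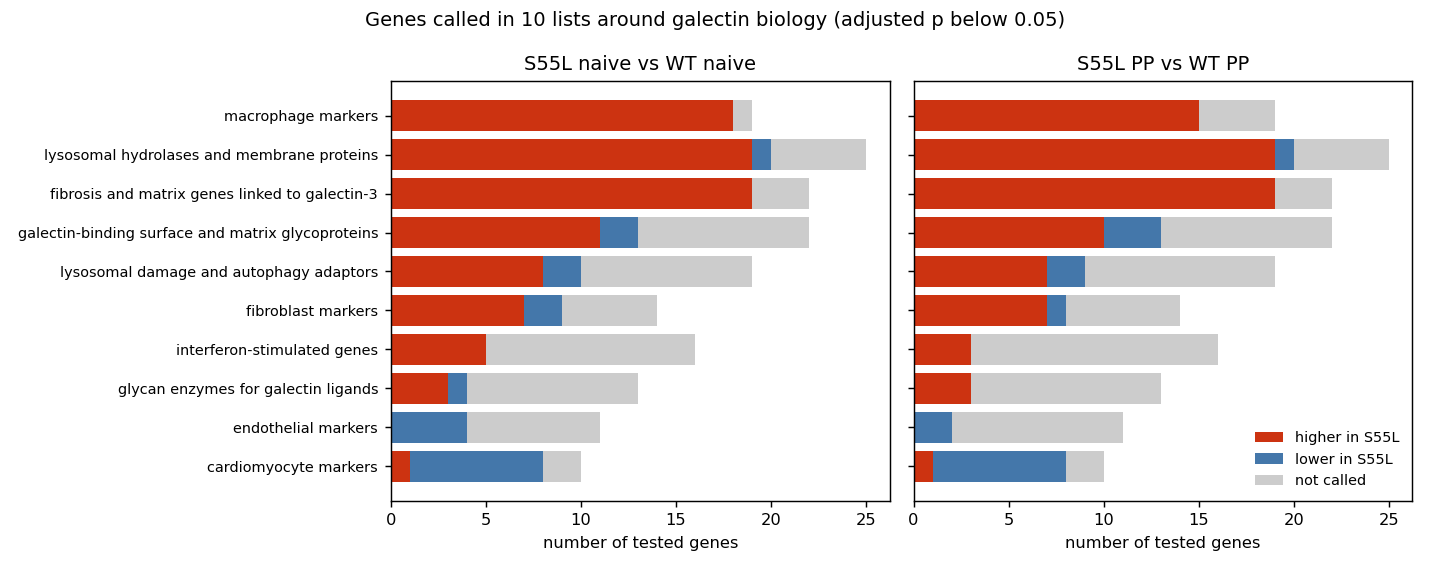
Number of tested genes (horizontal axis) of 10 lists called higher in S55L, lower in S55L or not called, at an edgeR adjusted p below 0.05, in naive hearts (left) and postpartum hearts (right). Macrophage markers have 18 of 19 and 15 of 19 higher, lysosomal genes 19 of 25 in both, and glycan enzymes 3 of 13 in both.

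For each gene the nearest patterns were sought among the 9332 genes that averaged 5 CPM or more, as the smallest root mean square difference of centred log2 CPM over the 18 distinct libraries of the postpartum study. Nearest to Lgals3 were Inhba, the activin A subunit gene (0.50), Krt18, a simple keratin gene (0.51), and Vmn2r3, a vomeronasal receptor gene whose near-identical relatives make its counts uncertain (0.57). Inhba was at 1.11 and 2.28 CPM on average in WT naive and WT PP and at 50.8 and 57.3 CPM in S55L naive and S55L PP. Krt18 had 0 counts in all WT naive libraries, and its 27.4 CPM in S55L naive was at least 79.4-fold higher, with 3 counts over the WT naive group taken as the floor. Nearest to Lgals4 were the cytokine gene Il15 (0.40), the vessel ligand gene Angpt1 (0.43) and the atrial potassium channel gene Kcnj3 (0.44).

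Il15 was at 48.9 and 39.6 CPM in WT naive and WT PP and at 7.91 and 6.03 CPM in S55L naive and S55L PP. It thus shared the genotype contrast of Lgals4 and had a smaller step between the WT groups. Among the nearest to Lgals3bp were Pole4 (0.23) and the lysosomal protease gene Ctsc (0.26), the latter at 33.9, 46.3, 78.9 and 99.6 CPM in WT naive, WT PP, S55L naive and S55L PP. For Lgals1 they were Egln2, Mrtfa and Zmiz2 (0.19 to 0.22), for Lgals8 Phkb, Nfe2l2 and Epb41 (0.22 to 0.24) and for Lgals9 Arhgef3, Prob1 and Gcsh (0.23 to 0.27). All points share these libraries and their depth, and the values describe likeness in these libraries alone.

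In the diet study Lgals3 was at 143, 247, 304 and 264 CPM on the control diet and at 184, 328, 312 and 241 CPM on the EH301 diet. The ranges overlapped, and the log2 fold change of EH301 against control was 0.14 (SE 0.30). Lgals4 was at 0, 5.99, 5.94 and 6.69 CPM on the control diet and at 8.58, 5.79, 7.58 and 4.06 CPM on the EH301 diet, a log2 fold change of 0.23 (SE 0.40). The 0 belongs to control diet 1, the shallowest library with 466651 reads on genes, in which 3 counts would be 6.62 CPM, so the difference from the other libraries is not detectable at that depth.

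Lgals3bp was at 187, 101, 102 and 131 CPM on the control diet and at 62.4, 276, 90.3 and 132 CPM on the EH301 diet. The highest value of each diet was in its shallowest library, control diet 1 and EH301 diet 8 (466651 and 1141997 reads on genes). The log2 fold change of Lgals3bp was 0.11 (SE 0.41), and it was -0.44 without EH301 diet 8. Lgals1 spanned 301 to 582 CPM under control food and 241 to 467 CPM under EH301, with a log2 fold change of -0.18 (SE 0.32). It too was highest in the shallowest library of each diet. Lgals8 ranged from 15.4 to 21.8 and from 18.1 to 29.8 CPM (0.25, SE 0.25), and Lgals9 from 26.5 to 36.6 and from 28.7 to 57.9 CPM (0.27, SE 0.26).

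Between the diets 0 of the 6 genes were called, as were 0 of all 10335 genes by edgeR and 0 by DESeq2, and groups without overlap made up 1.5% of genes, and all 6 had an edgeR adjusted p of 0.9999. An unadjusted p below 0.05 was reached by 138 genes, 1.34% of those tested, and by 0 of the 6, whose unadjusted p ran from 0.322 (Lgals9) to 0.796 (Lgals3bp) in the edgeR test. With SE of 0.25 to 0.41 on the log2 scale, 8 libraries measure these differences coarsely. Per 100 CPM of the macrophage sum, Lgals3 was 2.93 to 10.6 CPM on the control diet and 5.45 to 12.1 on EH301. That sum was 2484 to 4886 CPM and 1911 to 6016 CPM, highest in EH301 diet 8, the library that was also highest for Lgals3, Lgals3bp, Lgals1 and Lgals9 within its diet.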

How the data were processed

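Per the labels' protocols, heart RNA was extracted with a Qiagen RNeasy Mini kit and sequenced from the 3' end (Lexogen QuantSeq FWD). The authors deposited unnormalised counts of reads per gene, and per the submitters' processing notes the tools were Trimmomatic 0.39, STAR 2.7.0f and HTSeq 0.6.1, with GRCm39.p6 as the build. The annotation release, strand setting and counting mode are not given in the sources used here. Nothing in the labels says that libraries come from separate mice, so p-values measure the spread between libraries, which may be technical.

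Symbols were matched by Ensembl ID to GENCODE M21. WT PP 1 and 2 were identical columns, as were S55L PP 1 and 2, and each pair was used as 1 library. Control diet 5 was identical to EH301 diet 6, and both were left out. HTSeq summary lines (17.5% to 39.1% of reads at several places, 1.97% to 7.08% on several genes, 1.43% to 10.1% on no gene) stayed out. In the postpartum study these shares differed by genotype. Reads on genes made up 58.3% to 61.6% in WT and 66.3% to 69.2% in S55L libraries. Those at several places made up 24.7% to 27.3% and 17.5% to 21.2%. The bearing of this difference on the genotype fold changes was not tested.

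The 18 postpartum-study libraries and the 8 diet libraries were fitted apart with edgeR 4.0.16 in R 4.3.3 (quasi-likelihood test, filterByExpr, trimmed-mean scaling). Benjamini-Hochberg adjustment ran over all genes tested, with a threshold of 0.05. SE is the fold change over the square root of F. The scripts were tested on simulated counts. Alternatives were DESeq2 1.42.0 (its size factors, and its test), total counts, no filter, a plate column term, a block for the title numbers, fits of the compared groups alone, all deposited columns, the shared diet column kept under either diet, the diet study restricted to libraries of at least 1200000 reads, and leaving out each library. Between WT PP and S55L PP, the 4 same-numbered pairs had deviations from their group means that correlated at r = 0.119 to 0.333. The meaning of the numbers is not in the labels, and pairs with different numbers were not compared. The values given for that comparison come from the fit without pairing, and the block for the title numbers was run as an alternative. Every other combination of groups had a pair at or below 0.1.

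The 6 genes, the gene lists and the tests were chosen with earlier results of these data known. Named are the 6 genes, up to 3 called genes of each list with the lowest adjusted p in a comparison, the 3 nearest in pattern to each gene (1 of them is not reported here), the other family genes and Chchd10. Genes named outside that rule after their values were seen include Mgat5, Cd36, Ech1, Heatr1, Ucp3, St3gal4, Vil1, Cdh17 and Epcam. For some lists more than 3 called genes are named. Gpnmb, Trem2, Ctsd and Lamp1 are among the genes in more than 1 list.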

Additional observations from a re-analysis of the deposited data

Results flagged for a closer look

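Of 36 sets of libraries examined (6 genes in 6 groups), 2 held a library whose distance from its nearest neighbour was large for the range of its group, where chance gives about 1 in 20. Lgals8 was at 25.2 CPM in WT PP 1, the only WT library in plate column 2, against 9.44 to 12.1 CPM in the other WT PP libraries. Lgals4 was at 0 CPM in control diet 1, against 5.94 to 6.69 CPM in the other control diet libraries, and that library was the shallowest of the diet study.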

How the results depend on the processing

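Under the alternatives run, the genotype values of Lgals3, Lgals4 and Lgals3bp kept their sign, which their choice with these comparisons known makes no sign of stability. With the plate column as a term 2871 and 2109 genes were called between genotypes in naive and postpartum hearts. Both counts rest on WT PP 1, the only WT library in column 2, and the postpartum count on S55L PP 5 as well. That term gave 21 called genes between PP and naive in WT. Because all WT naive libraries are in column 1, the fold changes there are in effect those without WT PP 1. For Lgals4 they were -1.12 with the term and -1.11 without that library. With the term, S55L PP against S55L naive rests on S55L PP 5 alone, and the difference of PP effects rests on it too, so their counts are not given. Other causes of these changes were not tested. Without a filter the counts for PP against naive in WT, the same in S55L and the difference of PP effects were 21, 37 and 5, and with DESeq2 12, 18 and 1. S55L PP against S55L naive gave 3 with total counts, 3 with only the compared groups and 10 with every deposited column. Leaving out 1 library gave 4565 to 4968, 3089 to 4146, 2 to 10 (10 without WT PP 1), 0 to 2 and 0 to 2 called genes in that order, and 0 to 0 between diets. Total counts shifted the median of all genes to 0.24 and 0.27 between genotypes.

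With the title numbers as a replicate block 5476 and 4119 genes were called between genotypes, 2 and 0 between states in WT and S55L, and 0 for the difference; no call of the 6 genes changed. For the diets, no paired analysis was possible because they share no number.

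Between diets, dropping libraries under 1200000 reads gave -0.16 for Lgals3 and -0.24 for Lgals3bp. Leaving out 1 library gave -0.38 to 0.076 for Lgals1 and -0.031 to 0.27 for Lgals3, both of opposite sign without control diet 1, and -0.44 to 0.34 for Lgals3bp, of opposite sign without control diet 2, control diet 3 or EH301 diet 8; the cause was not tested. Few counts limit the precision of Lgals3 in WT hearts and of Lgals4 in the diet study.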
